A study of Mus musculus with 10 samples.

Results

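Galectins are lectins that bind beta-galactose on glycoproteins and glycolipids. They are made without a signal peptide, stay largely in the cytosol and nucleus, and leave the cell by an unconventional route to cross-link surface glycans. Inside macrophages and microglia, galectin-3, galectin-8 and galectin-9 also gather on lysosomes whose membrane has been torn, because the break exposes luminal glycans to the cytosol, and galectin-3 is a familiar marker of activated microglia. The RNA of 5 genes of this system was examined here: Lgals1 and Lgals3, which encode galectin-1 and galectin-3, Lgals8 and Lgals9, which encode the tandem-repeat galectins galectin-8 and galectin-9, and Lgals3bp, which encodes a secreted, heavily glycosylated galectin-3 binding protein and is not itself a galectin. They were taken by symbol from the 53697 genes listed for each library, and they were selected on their counts in DKO against WT libraries, so their genotype differences are given as descriptions without p-values. All 5 were among the 13916 genes that passed the filter on low counts, and each lay above that filter in every library of both genotypes.

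The study asked whether loss of the paired repressors Bhlhe40 and Bhlhe41 moves microglia, the resident macrophages of the brain, towards the expression state seen around lipid-rich lesions. RNA was sequenced from microglia of 5 WT libraries (C57BL/6J or Rosa26Stop-YFP) and 5 DKO libraries (Bhlhe40–/–Bhlhe41–/–). All mice were untreated females on a C57BL/6 background, aged at least 2 or at least 6 months, and the labels do not say which age or which WT strain belongs to which library. Both genes are missing from the whole body of the DKO mice, so that microglia developed without them in an animal that lacked them everywhere. Cells were sorted as CD45.2+ CD11b+ after gating out Ly6C, Ly6G, MHCII and CD38. The labels call every library a biological replicate. They do not state that each library is a single mouse, so the spread between libraries may be partly technical. In bulk RNA, fewer cells of a type and less RNA per cell cannot be told apart.

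Library totals were 22483284 to 26109349 estimated counts, and the WT totals lay within the range of DKO. Bhlhe40 was near the floor in both genotypes, at 0.601 ± 0.385 CPM in the WT libraries and 0.177 ± 0.136 CPM in the DKO libraries (SD, n = 5; two-sided exact permutation p = 0.0476), where CPM is counts scaled to the library total after TMM correction. Bhlhe41 RNA was not lower in the DKO libraries, at 35.9 ± 6.67 CPM for WT and 50.9 ± 8.46 CPM for DKO (SD, n = 5; two-sided exact permutation p = 0.0238). Its edgeR adjusted p was 0.0707. The labels do not say which part of each gene is deleted, so these counts do not test the genotype. Summed markers of microglia were 82707 to 91602 CPM in WT and 77804 to 93980 CPM in DKO. Of the 10 markers P2ry12, a purinergic receptor of homeostatic microglia, fell (log2 fold change -0.50 ± 0.12 SE, edgeR adjusted p = 0.0301).

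Promoter sequence from RefSeq (GRCm38.p6, 250 bases before to 50 bases after the start) was held for Lgals3, Lgals3bp, Lgals8 and Lgals9. It was searched on both strands for 3 motifs that bear on the study. The windows of Lgals3 (chr14:47373610-47373909) and Lgals8 (chr13:12461689-12461988) lie inside the GENCODE gene bounds given below. For these genes the outermost start was therefore not searched. CACGTG, the palindromic E-box that Bhlhe40 and Bhlhe41 bind, was in 0 of the 4 promoters and in 7.15% of all 32851 promoters. TGANTCA, the AP-1 motif, was in 0 of 4 and in 7.81% of all promoters. GAAA followed after any 2 bases by GAAA, the core of the interferon-stimulated response element, was in 1 of 4 and in 3.44% of all promoters. The 1 promoter was that of Lgals9, which held the motif at 2 places, both on the strand opposite to the gene. They are shown because galectin-9 is an interferon-inducible gene and interferon genes are compared with it below. The capitals mark the motif as read on the gene's own strand (minus), where it appears as its reverse complement. The first motif base lies at -55 and 15 bases from the start, which is counted as 0.
Lgals9 at chr11:78984960-78984989, minus strand: tgacatcagcTTTCTTTTTCtctagacact
Lgals9 at chr11:78984890-78984919, minus strand: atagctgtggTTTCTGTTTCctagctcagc
A match describes letters only, and its absence from a window of this length says nothing about either factor.

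In WT microglia the galectin system spanned a wide range of RNA levels. Levels between genes were compared as CPM per kilobase of effective transcript length. Lgals9 stood highest at 396.8 ± 79.7 CPM per kb (SD, n = 5), at rank 276 of 13916 genes. Lgals3bp followed at 158 ± 35.5 CPM per kb (rank 715) and Lgals8 at 68.2 ± 7.16 CPM per kb (rank 1616). Lgals1 and Lgals3 were rare transcripts in WT, at 2.78 ± 1.49 CPM per kb (rank 8763) and 1.97 ± 0.685 CPM per kb (rank 9482). The order Lgals9, Lgals3bp, Lgals8, Lgals1 held in 5 of 5 WT libraries. The step in the level from Lgals9 to Lgals3bp was 1.34 ± 0.124 (SD, n = 5) on the log2 scale. It was 1.19 ± 0.436 from Lgals3bp to Lgals8 and 4.78 ± 0.655 from Lgals8 to Lgals1. Each of these 3 steps gave an exact two-sided sign-flip p of 0.0625, the smallest that 5 libraries allow, or 0.0833 after adjustment over the 4 steps, so none could pass 0.05. Lgals1 and Lgals3 were not separated, with a difference of 0.43 ± 0.86 (SD, n = 5) that was positive in 4 of 5 WT libraries (exact p = 0.375).

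In DKO microglia the order of the means was the same, but Lgals1 had moved up the ranking. Lgals9 had 480.5 ± 46.8 CPM per kb (rank 214), Lgals3bp 271.7 ± 52.2 (rank 416) and Lgals8 66.2 ± 6.08 (rank 1666). Lgals1 had 25.6 ± 1.68 CPM per kb (rank 3422) and Lgals3 6.72 ± 1.84 (rank 6862), with ranges of 23.97 to 27.7 and of 4.33 to 8.20, so that the ranges of these genes, which lay at 1.41 to 5.08 and 0.863 to 2.58 in WT, did not overlap between Lgals1 and Lgals3 in DKO.

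**Figure D1:**
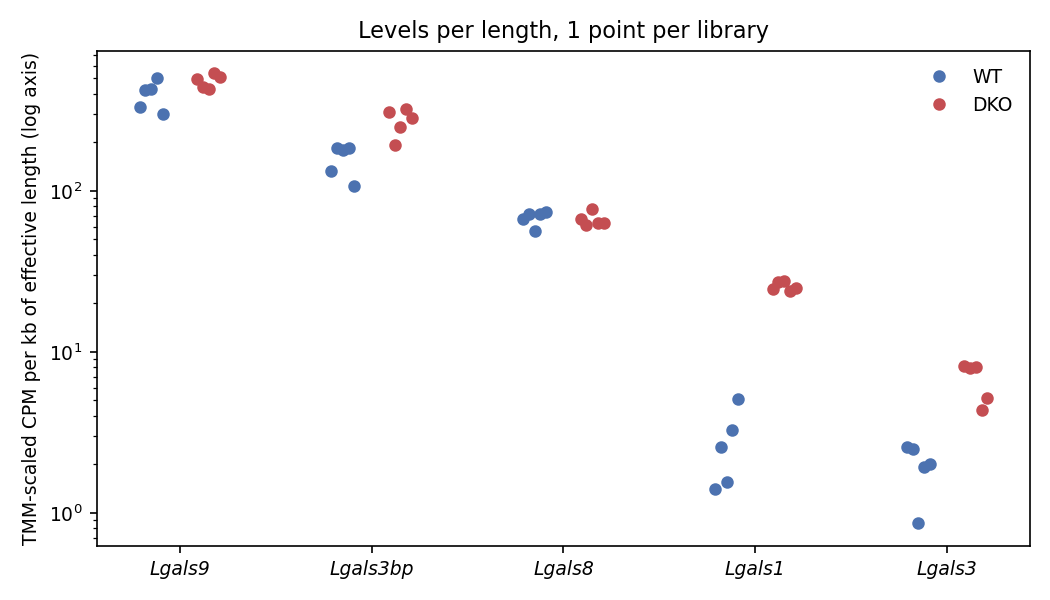
Level per length of the 5 genes in CPM per kilobase of effective length (log axis), with a point for each of the 5 WT and 5 DKO libraries. Lgals9, Lgals3bp and Lgals8 lie far above Lgals1 and Lgals3 in WT, and the DKO points of Lgals1 (23.97 to 27.7) clear those of Lgals3 (4.33 to 8.20).

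Lgals1 encodes galectin-1, a small prototype galectin that acts as a dimer and is known for its immunoregulatory action on T cells and microglia. The WT libraries 1 to 5 held 0.58, 1.06, 0.67, 1.40 and 2.18 CPM. The DKO libraries 1 to 5 held 10.42, 11.64, 11.76, 10.31 and 10.71 CPM. Every DKO library lay above every WT library. The DKO values were tightly grouped while WT 4 and WT 5 were the highest of their genotype. The estimated counts behind these values were 16 to 58 in WT and 244 to 274 in DKO, so the WT level rests on few reads. The means were 1.18 ± 0.650 and 10.97 ± 0.683 CPM (SD, n = 5), a 9.31-fold difference, and the fitted log2 fold change (edgeR, DKO over WT) was 3.21 ± 0.31 (SE).

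Lgals3 encodes galectin-3, the chimera-type galectin, which forms oligomers through its N-terminal tail and binds Trem2 and Tlr4 among other microglial receptors. It had 1.84, 1.74, 0.67, 1.36 and 1.505 CPM in WT 1 to 5. In DKO 1 to 5 it had 6.02, 5.75, 6.44, 3.18 and 3.78 CPM. The genotypes did not overlap, WT 3 was the lowest of all, and DKO 4 and DKO 5 lay below the other 3 DKO libraries. Estimated counts were 17 to 51 in WT and 78 to 150 in DKO. The means of 1.42 ± 0.460 and 5.04 ± 1.45 CPM (SD, n = 5) differed 3.54-fold, with a fitted log2 fold change of 1.82 ± 0.29 (SE).

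Lgals3bp, the glycoprotein ligand of galectin-3 and an interferon-inducible gene, was abundant in both genotypes. WT 1 to 5 held 240, 336, 341, 348 and 209 CPM. DKO 1 to 5 held 583, 364, 461, 620 and 543 CPM. The genotypes did not overlap, but DKO 2 exceeded WT 4 only narrowly, and WT 1 and WT 5 lay apart below the other WT libraries. Estimated counts were 5551 to 15205 in the 10 libraries, so counting error was small beside the spread. The means were 294.6 ± 65.2 and 514 ± 103 CPM (SD, n = 5) and the log2 fold change 0.80 ± 0.18 (SE).

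Lgals9 encodes galectin-9, a tandem-repeat galectin and a ligand of the inhibitory receptor Tim-3 (Havcr2). It held 429, 552, 569, 665 and 401 CPM in WT 1 to 5. It held 655, 584, 558, 723 and 680 CPM in DKO 1 to 5. The genotypes overlapped: WT 4 lay above DKO 1, DKO 2 and DKO 3, WT 3 lay above DKO 3, and WT 1 and WT 5 were again the lowest. The means were 523 ± 108 and 640.2 ± 67.9 CPM (SD, n = 5), with a log2 fold change of 0.29 ± 0.14 (SE).

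Lgals8 encodes galectin-8, the tandem-repeat galectin known to recruit the autophagy receptor Ndp52 to damaged vesicles. Calcoco2, the gene of Ndp52, did not pass the count filter here. The 5 WT libraries held 147, 161, 136, 164 and 174 CPM of Lgals8. The DKO libraries held 160, 153, 180, 150 and 158 CPM of it. The ranges overlapped almost fully, with means of 156 ± 15.1 and 160.1 ± 11.7 CPM (SD, n = 5) and a log2 fold change of 0.03 ± 0.09 (SE).

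**Figure D2:**
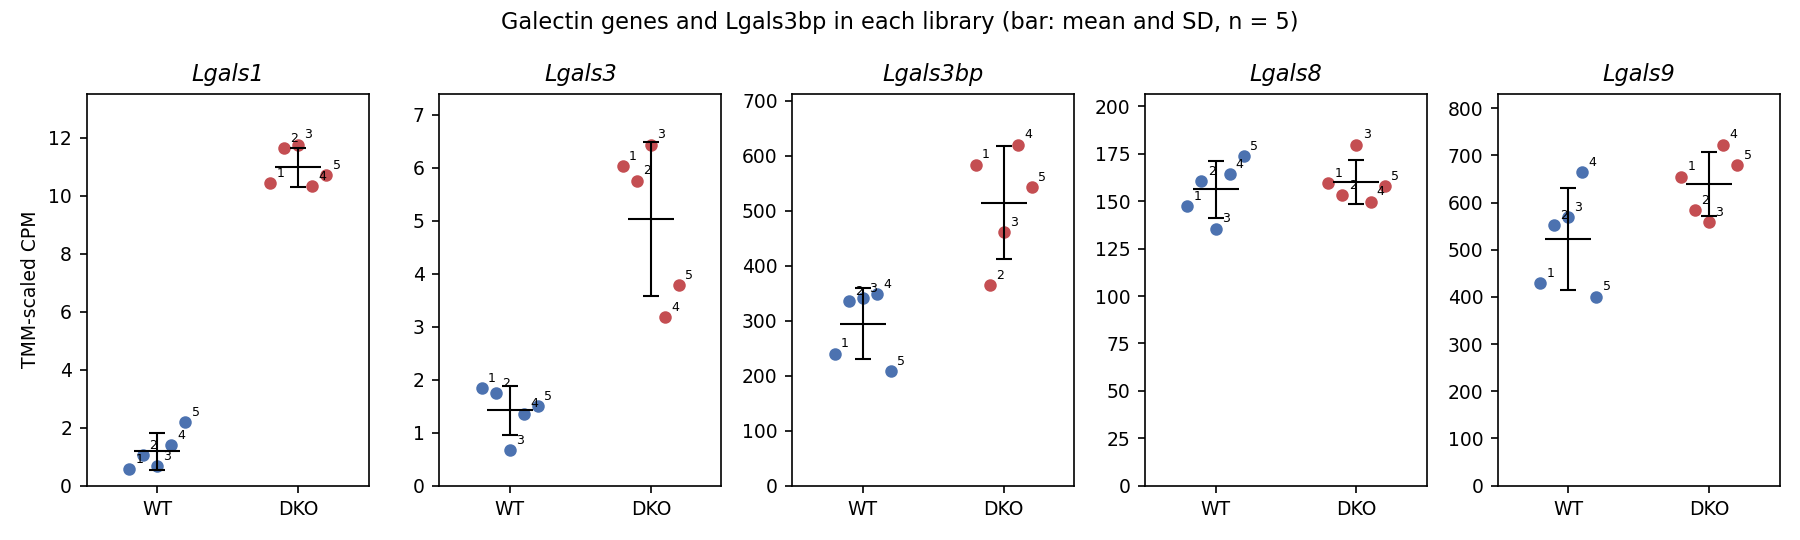
CPM of each of the 5 genes in every library (1 panel per gene, each with its own linear axis), with points for the 5 WT and 5 DKO libraries and bars at the mean with the SD (n = 5). The genotypes are apart for Lgals1, Lgals3 and Lgals3bp and overlap for Lgals8 and Lgals9.

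Lgals1, Lgals3 and Lgals3bp, 3 of 5, had an edgeR adjusted p under 0.05 in DKO against WT, all 3 higher and 0 lower. Over all 13916 genes 6.19% were called, 4.34% higher and 1.85% lower. The same 3 genes had every DKO library above every WT library, which held for 4.33% of all genes. Since the genes were selected on this contrast, nothing is read from these counts. The other settings run were refits of the same libraries that the selection used, so calls under them add no support. Lgals1 and Lgals3 stayed past the threshold in all 24 of these settings. Lgals3bp did not in 7 of them: without WT 1 (log2 fold change 0.74), DKO 1 (0.76) or DKO 5 (0.78), without WT 1 and WT 5 together (0.59), with the replicate number as a block (0.81), and on log2 TPM with 1 or with 0.1 added (0.44 in both).

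WT 1 and WT 5 were the lowest libraries for Lgals3bp and Lgals9. Without them the log2 fold change was 0.59 for Lgals3bp and 0.10 for Lgals9. Leaving out the lowest WT libraries of a gene must lower its difference, so these 2 values are no separate check. Without these libraries Lgals1 had a log2 fold change of 3.39, Lgals3 of 2.00 and Lgals8 of 0.06. Reads of mitochondrial genes took 1.75% in WT 1 and 1.54% in WT 5 against 0.986% to 1.58% in the other 8 libraries, and their part in these differences was not tested. A single non-coding RNA, Gm23935, took 23.2% to 26.6% of TPM in DKO, 20.3% in WT 3 and 2.85% to 6.60% in the other WT libraries. Its share lowers the TPM of all other genes, most of all in DKO and WT 3. On log2(TPM + 1) the median of all genes was -0.26. On that scale Lgals8 had -0.39 and Lgals9 -0.06, and the differences of Lgals1 and Lgals3 were 2.62 and 1.12. Relative to the median of all genes on that scale, they were 2.87 for Lgals1, 1.37 for Lgals3, 0.69 for Lgals3bp, -0.13 for Lgals8 and 0.20 for Lgals9. With upper-quartile scaling Lgals8 also changed sign, to -0.07, against a median of all genes of -0.11.

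**Figure D3:**
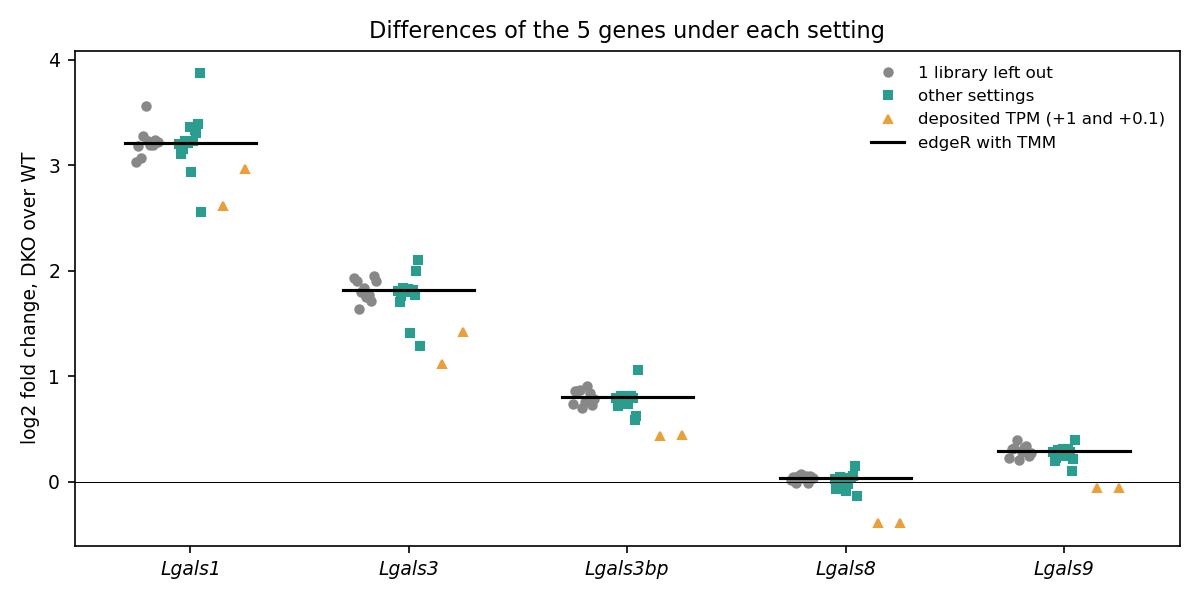
Log2 fold change (DKO over WT) of the 5 genes under the main setting and each alternative, with the genes along the horizontal axis and symbols for leaving out a library, for deposited TPM and for other settings. Lgals1 (2.55 to 3.87) and Lgals3 (1.12 to 2.10) stay far above 0, while Lgals8 lies around 0 and turns negative on TPM.

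The size of the differences was not even across the replicate numbers. For numbers 1 to 3, the DKO mean of Lgals1 was 14.6-fold the WT mean, and for numbers 4 and 5 it was 5.87-fold. Lgals3 differed 4.29-fold and 2.43-fold, Lgals3bp 1.54-fold and 2.09-fold, Lgals9 1.16-fold and 1.32-fold, and Lgals8 1.11-fold and 0.910-fold. These are values of 3 and of 2 libraries per genotype, and the difference between them was not tested. The level itself, for numbers 4 and 5 over numbers 1 to 3 in a fit with genotype, was 0.48 ± 0.28 (SE) on the log2 scale for Lgals1 (edgeR adjusted p = 0.375) and -0.42 ± 0.28 (SE) for Lgals3 (edgeR adjusted p = 0.457). In that contrast 0 of the 5 genes passed the edgeR threshold, and 0 had an unadjusted p under 0.05, against 3.38% of all genes past the threshold.

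The genes lie on 4 chromosomes in GRCm38 (GENCODE M21). Lgals1 is on chromosome 15 (chr15:78926725-78930465, plus strand) and Lgals3 on chromosome 14 (chr14:47367751-47386160, plus strand). Lgals9 and Lgals3bp are both on chromosome 11, far apart, at chr11:78962974-78984946 and chr11:118392751-118402092 (both minus strand), and Lgals8 is on chromosome 13 (chr13:12439415-12464944, minus strand). Only Lgals8 overlapped another gene, Heatr1 on the opposite strand, with means of 56.8 (WT) and 55.2 CPM (DKO), and since the library kit does not keep strand, reads in the overlap cannot be told apart. The nearest tested gene on each side of each locus was chosen after the data were seen, and 0 of these 10 passed the threshold by edgeR, DESeq2 or voom, with 1 at an unadjusted edgeR p under 0.05. Beside Lgals1, Nol12 had a log2 fold change of 0.18 (edgeR adjusted p = 0.451) and Sh3bp1 of 0.10 (edgeR adjusted p = 0.799). Beside Lgals3bp, Cant1 had 0.22 (edgeR adjusted p = 0.138) and Timp2 0.13 (edgeR adjusted p = 0.674).

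The deposited gene length is weighted by the abundance of a gene's transcripts, so it moves when the mix of transcripts moves. Lgals1 has a main coding transcript of 800 bases in 4 exons, and its length was 798.1 to 800 bases in the 10 libraries. Lgals9 stayed at about 1520 bases, the length of its transcript with 10 exons, in all of them. Lgals3 varied from 1072 to 1167 bases and Lgals3bp from 2291 to 2322. Lgals8, which has 6 coding transcripts of 1148 to 2843 bases, varied most, with 2213 ± 92.2 bases in WT and 2291 ± 43.7 bases in DKO (SD, n = 5), and the ranges of 2112 to 2327 and 2248 to 2354 bases overlapped.

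Of the other galectin genes, 7 were listed and 6 were present in the files, but only Lgalsl, a galectin-like gene thought not to bind beta-galactosides, passed the filter. It lay at 3.89 ± 0.540 CPM in the WT and 4.41 ± 1.03 CPM in DKO (SD, n = 5; log2 fold change 0.18 ± 0.20 SE, edgeR adjusted p = 0.62). Lgals4, a galectin of the gut epithelium, had 35 counts over all 10 libraries and Lgals2 had 14. Lgals7, a galectin of stratified epithelia, had 1 count, and Grifin, a galectin-related gene of the lens, had 0. Reads of Lgals1 could be shared with its processed pseudogenes, but Lgals1-ps1 held 0 counts and Lgals1-ps2 held 2.

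The glycoproteins that galectins bind at the microglial surface were mostly without a called difference. Of 14 tested genes of a list of 15 counter-receptors, 1 rose and 0 fell, which is 7.14% higher beside 4.34% of all genes, with a median log2 fold change of 0.03. The gene that rose was Cd44, the hyaluronan receptor. Its WT libraries held 0.61 to 2.63 CPM and its DKO libraries 5.46 to 9.90 CPM, with every DKO library above every WT library (log2 fold change 2.45 ± 0.38 SE, edgeR adjusted p = 0.00314). Havcr2, the galectin-9 receptor, had a mean of 294.1 ± 83.9 CPM for WT and of 296.1 ± 52.2 CPM for DKO (SD, n = 5; log2 fold change 0.01 ± 0.20 SE). Ptprc, the CD45 phosphatase bound by galectin-1, had 295 ± 27.8 and 301.8 ± 28.0 CPM (0.03 ± 0.09 SE). Trem2, bound by galectin-3, had 1588 ± 197 and 1468 ± 165 CPM (-0.11 ± 0.11 SE).

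Enzymes that build or cap the N-acetyllactosamine chains on which galectins act differed gene by gene. Of 23 tested of 25 listed, 3 rose and 1 fell (13.04% higher beside 4.34% of all genes, median 0.17). B4galt4, a galactosyltransferase, fell from 203 ± 21.4 to 122 ± 20.4 CPM (SD, n = 5; log2 fold change -0.73 ± 0.12 SE, edgeR adjusted p = 0.00568). B3gnt2, the main enzyme that extends N-acetyllactosamine chains, rose from 31.8 ± 21.8 to 93.4 ± 28.9 CPM (1.55 ± 0.37 SE, edgeR adjusted p = 0.0328). WT 3, at 70.7 CPM, lay far above the other WT libraries and within the DKO range. Gcnt2, which branches these chains, rose from 72.2 ± 24.7 to 128.8 ± 17.8 CPM (0.84 ± 0.22 SE, edgeR adjusted p = 0.045), and Man2a1, a Golgi mannosidase of N-glycan maturation, from 3.64 ± 0.773 to 6.43 ± 1.61 CPM (0.82 ± 0.21 SE, edgeR adjusted p = 0.0386). Of the other 24 settings, B4galt4 kept its call in all, while B3gnt2 lost it in 9, Man2a1 in 14 and Gcnt2 in 14.

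The intracellular response to a damaged lysosome, in which galectins act with autophagy receptors, TFEB and the ESCRT machinery, had 34 tested genes of 36 listed. Of these, 1 rose and 0 fell (2.94% higher beside 4.34% of all genes, median 0.09). This gene was Optn, an autophagy receptor, with 1.45 ± 0.666 CPM for WT and 3.52 ± 1.01 CPM for DKO (SD, n = 5; 1.27 ± 0.33 SE, edgeR adjusted p = 0.042). Its call was lost in 14 of 24 settings, and its difference was 0.04 with effective length as an offset, -0.10 on log2(TPM + 1) and 0.00 on log2(TPM + 0.1). Sqstm1, the p62 receptor, had 353.5 ± 20.4 and 372.1 ± 16.5 CPM (0.07 ± 0.07 SE), and Tfeb, the master regulator of lysosome genes, 26.4 ± 11.4 and 47.6 ± 5.02 CPM (0.85 ± 0.24 SE, edgeR adjusted p = 0.0583).

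Of the 24 listed type I interferon response genes, a class to which Lgals9 and Lgals3bp belong, all were tested, 7 rose and 0 fell. This is 29.2% higher beside 4.34% of all genes. Of the 24, 23 had a positive log2 fold change, as had 6781 of all 13916 genes. The median was 0.49 beside -0.01 over all genes. Ifitm3, which restricts viral entry, ranged from 7.60 to 15.2 CPM over the WT and from 24.1 to 32.9 CPM over the DKO libraries (log2 fold change 1.19 ± 0.18 SE, edgeR adjusted p = 0.00273). Ifi27l2a, a strongly inducible interferon gene, rose by 1.20 ± 0.20 (SE, edgeR adjusted p = 0.0053). Irf7, the transcription factor that amplifies the response, rose from 5.78 ± 0.827 to 11.4 ± 2.16 CPM (SD, n = 5; 0.98 ± 0.17 SE, edgeR adjusted p = 0.00565). Oas1a, a sensor of double-stranded RNA, rose from 12.5 ± 1.55 to 23.1 ± 5.22 CPM (0.89 ± 0.16 SE, edgeR adjusted p = 0.00952). These 4 genes kept their call in all 24 settings. The summed level of the list was 496.4 to 558.1 CPM in WT and 550.6 to 730.2 CPM in DKO. WT 1 had the highest sum of the WT libraries and WT 5 the lowest, whereas both were low for Lgals3bp and Lgals9. DKO 2 had the lowest sum of the DKO libraries and also the lowest Lgals3bp. DKO 3 had the highest sum, at 730.2 CPM, but the lowest Lgals9 of the DKO libraries, at 558 CPM. The relation of the sum to either gene was not tested.

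Genes of disease-associated microglia, a state in which Lgals3 is commonly counted, were listed without the 5 genes. Of 20 tested of 21, 4 rose and 1 fell (20.0% higher beside 4.34% of all genes, median 0.20). Clec7a, the receptor Dectin-1, ranged from 1.66 to 19.5 CPM over the WT and from 50.7 to 90.7 CPM over the DKO libraries (log2 fold change 2.67 ± 0.58 SE, edgeR adjusted p = 0.0223), and it lost its call without DKO 1 and without DKO 2. Ank, a pyrophosphate transporter, rose from 6.80 ± 1.07 to 17.1 ± 1.52 CPM (SD, n = 5; 1.33 ± 0.13 SE, edgeR adjusted p = 0.000177), and Cd9, a tetraspanin, from 1890 ± 75.9 to 2955 ± 106 CPM (0.65 ± 0.07 SE, edgeR adjusted p = 0.000249). Cd9 lost its call on log2 TPM with 1 or with 0.1 added. Spp1, the secreted protein osteopontin, fell from 2.00 ± 1.09 to 0.349 ± 0.153 CPM (-2.50 ± 0.49 SE, edgeR adjusted p = 0.0136), a low level in both genotypes, and it lost its call without WT 1 and WT 5. Apoe, the lipid carrier, had 65.6 ± 71.6 and 36.1 ± 20.4 CPM (-0.86 ± 0.78 SE).

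**Figure D4:**
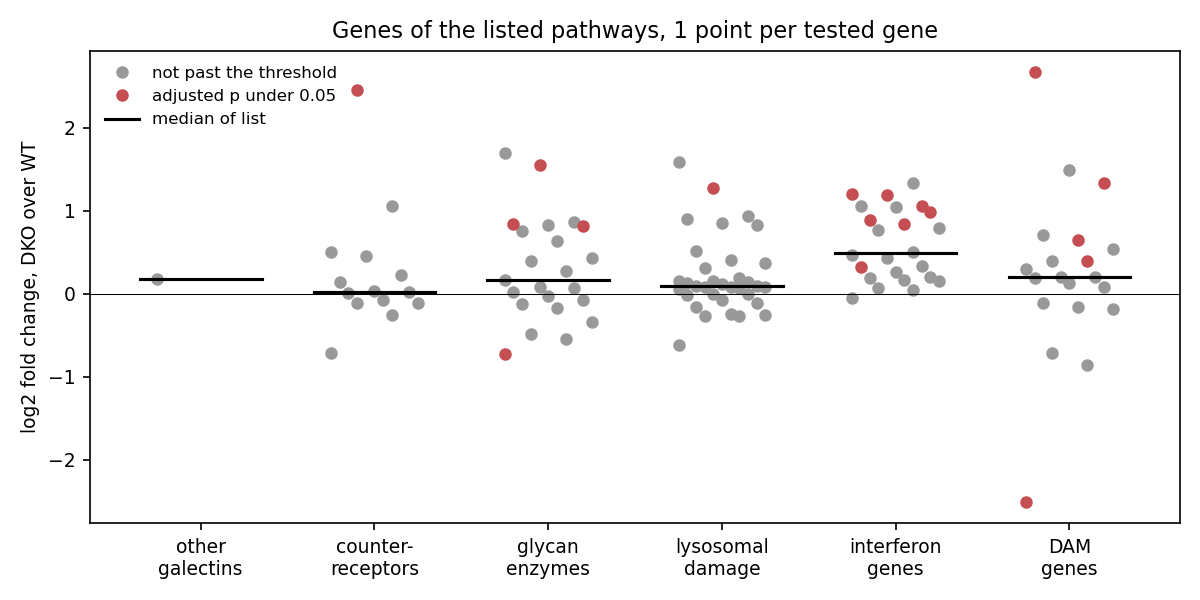
Log2 fold change (DKO over WT) of every tested gene in 6 gene lists (other galectins, counter-receptors, glycan enzymes, lysosomal damage, interferon genes and genes of disease-associated microglia, DAM), with red points for genes past the edgeR threshold and a line at each list's median. The interferon points lie mostly above 0 (median 0.49), and the counter-receptor points around it (median 0.03).

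Lgals1 and Lgals3 are also expressed by blood-derived macrophages, fibroblasts and astrocytes, so markers of other cells were summed in each library. Of the border macrophage list, 3 of 7 were tested and 1 rose, Pf4 (0.149 ± 0.138 CPM in WT and 3.91 ± 1.55 CPM in DKO, SD, n = 5; edgeR adjusted p = 0.000518), while Cd163, Lyve1 and Clec10a were at 0. The sum was 4.62 to 15.5 CPM in WT and 6.86 to 26.8 CPM in DKO. Mrc1 made up most of this sum and was not called (log2 fold change 0.43 ± 0.54 SE, edgeR adjusted p = 0.667). It was 3.95 to 5.51 CPM in WT 1 to 3, 15.3 CPM in WT 4 and 11.02 CPM in WT 5. In DKO 1 to 3 it was 3.78 to 5.44 CPM, in DKO 4 21.7 CPM and in DKO 5 19.3 CPM. WT 4 and WT 5 were also the highest WT libraries for Lgals1, while DKO 4 and DKO 5 lay below DKO 2 and DKO 3 for Lgals1. Of the monocyte list, 3 of 8 were tested and 1 rose, Ly6a (11.8 ± 1.76 and 19.8 ± 4.43 CPM, edgeR adjusted p = 0.0315), with sums of 14.9 to 19.0 and 16.9 to 28.6 CPM and Chil3 at 0. Ly6a made up most of these sums. The other tested genes, Ccr2 (log2 fold change 0.50, edgeR adjusted p = 0.225) and Plac8 (-1.81, edgeR adjusted p = 0.116), went in opposite directions. The part of border macrophages and monocytes in the levels of Lgals1 and Lgals3 was not tested. Of 7 neutrophil genes 0 were tested, and the sum was at most 0.171 CPM, with S100a8 and S100a9 at 0. Fibroblast markers (1 of 6 tested, 0 called) summed to 0.823 to 2.77 CPM in WT and 0.935 to 2.19 CPM in DKO, with Col3a1 at 0. Dendritic cell markers (3 of 6 tested, 0 called) reached 3.04 and 4.36 CPM. Astrocyte markers (5 of 6 tested) summed to 242.3 to 396.7 CPM in WT and 157.6 to 209.8 CPM in DKO, nearly all of it Slc1a3, which fell (304.4 ± 56.5 and 171.1 ± 21.1 CPM, edgeR adjusted p = 0.00401), while 3 of the 5 tested had a positive log2 fold change and the median was 0.56. Endothelial markers (3 of 6 tested) summed to 41.4 to 63.5 CPM in WT and 11.2 to 18.6 CPM in DKO, and 1 fell, Pecam1. Pecam1 made up most of the WT sum (44.2 ± 10.1 CPM in WT and 5.08 ± 1.07 CPM in DKO). Kdr and Flt1, the other tested genes of that list, were not called (log2 fold changes of 0.21 and 0.08). T and NK cell markers (2 of 6 tested) summed to 24.9 to 47.9 and 9.95 to 18.4 CPM, and 1 fell, Il7r. Il7r made up most of this sum (34.1 ± 8.43 CPM in WT and 12.6 ± 3.78 CPM in DKO). Cd3d, the other tested gene, was not called (log2 fold change 0.42), and Trbc2 and Nkg7 were at 0. Of B cell markers (2 of 5 tested) and neuron markers (4 of 5 tested) 0 were called, with sums of 418 to 676.7 and 525.9 to 886.2 CPM, and of 7.36 to 9.33 and 8.36 to 12.6 CPM.

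For each gene the 3 profiles nearest to its own over the 10 libraries were found among genes with a mean log2 CPM of at least 3, by the root mean square difference of centred log2 CPM. Nearest to Lgals1 were Plaur, the urokinase receptor, at 0.527, Olfr1330, an olfactory receptor gene, at 0.605, and Tmem92 at 0.649, against a median of 1.72 over all these genes. Nearest to Lgals3 were Hcar2, the receptor for hydroxybutyrate and niacin, at 0.28, Vcam1, an adhesion molecule, at 0.305, and the chemokine receptor Cxcr3 at 0.382 (median 1.04). Nearest to Lgals3bp were the malic enzyme Me2 at 0.171, Dab2, an endocytic adaptor, at 0.194, and Lat2 at 0.197 (median 0.557). Lgals9 lay nearest to Arpc2, of the Arp2/3 complex, at 0.0772, Npc2, a lysosomal cholesterol carrier, at 0.0784, and Ftl1, the ferritin light chain, at 0.0846 (median 0.357). Lgals8 lay nearest to Sdad1 at 0.064, Ralgps2 at 0.0718 and Mid1ip1 at 0.0796 (median 0.247). These are distances over 10 libraries that share depth and genotype, and they carry no test.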

How the data were processed

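Microglial RNA was sequenced in 5 WT and 5 DKO libraries (TruSeq RNA v2, unstranded). RNA integrity of the mouse samples was not measured, because too little RNA was available. The authors used FastQC 0.11.8 and cutadapt 2.6, then STAR 2.5.3a with mm10 as the genome. How the gene values were estimated was not stated. The deposited files give, per gene, an estimated count without normalization, a TPM scaled per library, and an abundance-weighted length and effective length in bases.

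After rounding, the counts were filtered by filterByExpr (minimum count 10) and compared between genotypes with edgeR 4.0.16 (TMM, glmQLFTest, genotype alone) in R 4.3.3, with Benjamini-Hochberg adjustment over 13916 genes and a threshold of 0.05. The fit was tested on simulated data. The common biological coefficient of variation was 28%. A standard error is the log2 fold change divided by the square root of its F. Levels per length are CPM per kilobase of effective length. Bhlhe40 and Bhlhe41 were also compared by exact permutation of 5 against 5 libraries, whose smallest p is 0.00794. No 2 libraries were duplicates: at most 1.93% of tested genes had equal counts in a pair.

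The 5 genes, the lists and the tests were chosen with earlier results of these data known. Named are the 5 genes, Bhlhe40 and Bhlhe41, up to 4 called genes of each list with the smallest p, and the 3 nearest profiles of each gene. Havcr2, Ptprc, Trem2, Sqstm1, Tfeb, Apoe, the neighbouring genes and the cell type markers were named for their role or place, outside that rule and after their values were seen. Markers of 1 other cell type are not reported here. Besides leaving out each library, 14 other settings were run: RLE, upper-quartile and no scaling factors, no filter, a CPM of at least 1 in 5 libraries, DESeq2 1.42.0, limma 3.58.1 with voom and on log2 TPM (1 or 0.1 added, and 1 without Gm23935), offsets from effective length, a block for the replicate number, a term for numbers 1 to 3 against 4 and 5, and leaving out WT 1 and WT 5. Values for numbers 1 to 3 and 4 and 5 alone, and the test of these sets, were added after the data were seen.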

Additional observations from a re-analysis of the deposited data

Results flagged for a closer look

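In 44 genotype groups of 22 genes, 1 library stood apart from the other 4 of its genotype. B3gnt2, which extends N-acetyllactosamine chains, had 70.7 CPM in WT 3 and 19.3 to 25.4 CPM in the other WT libraries, a gap of 0.882 of the whole range against a critical 0.71. Chance flags about 1 in 20 groups. No library of Lgals1, Lgals3, Lgals3bp, Lgals8 or Lgals9 stood apart in this way.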

How the results depend on the processing

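Against 862 genes called by edgeR, DESeq2 called 1629, limma 4815 on log2(TPM + 1) and 4820 on log2(TPM + 0.1), the term for the 2 sets of numbers 1431, the fit without WT 1 and WT 5 449, and leaving out each library 402 (without DKO 1) to 1618 (without WT 3). Of the calls, 70.1% were higher, against 54.6% under upper-quartile scaling, 53.7% under library size alone, 59.8% with the term for the sets, 54.9% on TPM without Gm23935 and 13.04% on log2(TPM + 1). Deviations of same-numbered libraries had correlations of -0.235 to 0.199. The labels do not say whether the numbers pair libraries, and these values cannot settle it. With the replicate number as a block 547 genes were called.
The log2 fold change of Lgals1 was 2.62 on log2(TPM + 1), 3.87 in numbers 1 to 3, 2.55 in numbers 4 and 5, and 3.04 to 3.57 leaving out each library. Lgals3 had 1.12 on log2(TPM + 1), 1.28 in numbers 4 and 5 and 1.64 to 1.95 leaving out each library. Lgals3bp had 0.44 on both TPM scales and 0.70 to 0.91 leaving out each library. Lgals8 had -0.39 on both TPM scales, where it was called lower, -0.0914 on TPM without Gm23935, -0.14 in numbers 4 and 5, and -0.01 to 0.08 leaving out each library. Lgals9 had -0.0572 on log2(TPM + 1), -0.0573 on log2(TPM + 0.1) and 0.21 to 0.39 leaving out each library. Optn was reversed on TPM, at -0.0972 with 1 added and -0.00191 with 0.1 added.
Calls among counter-receptors went from 1 to 2 with DESeq2, 7 on both TPM scales and 1 to 2 leaving out each library. Glycan enzymes had 4 calls, 8 on both TPM scales, 2 with the length offset or the replicate block and 1 to 10 leaving out each library. The lysosomal damage list had 1 call, 0 with library size only or the block, 2 with no filter or DESeq2 and 3 with voom. It had 15 on both TPM scales and 0 to 3 leaving out each library. In the counter-receptor, glycan enzyme and lysosomal damage lists, the highest count leaving out 1 library came without WT 3 (2, 10 and 3 calls). Interferon genes had 4 to 9 calls leaving out each library and the disease-associated list 3 to 5, with 3 without WT 1 and WT 5.
The Bhlhe40 difference was -0.539 to -0.311 CPM leaving out each library (exact permutation p up to 0.111), and that of Bhlhe41 13.04 CPM with library size only (exact permutation p = 0.0556) and 12.6 to 17.8 CPM leaving out each library. The cause of these changes was not tested. Depth limits Lgals1 and Lgals3 in WT, at 16 to 58 and 17 to 51 counts.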
